A study of Mus musculus with 16 samples.

Results

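E-cadherin (Cdh1), the catenins of its inner complex, plakoglobin included (Ctnna1, Ctnnb1, Ctnnd1 and Jup), the chains of its integrin receptor (Itgae and Itgb7) and the epithelial adhesion molecule Epcam were examined in dendritic cells (DCs) of mouse spleen. These 8 genes were taken by name from a table of raw counts of 24116 genes, and all 8 passed the filter on low counts that left 13790 tested genes. The group was chosen by the measured Cdh1 counts of cDC2, the classical DCs of the second lineage, which are high in CKO, so the Cdh1 levels of those cells are given as a description with no test. The other 7 genes were added as known partners. The 16 RNA-seq libraries came from sorted cells of 4 subsets and 2 genotypes, with 2 libraries in each of the 8 groups. CKO marks cells deficient in Etv6, a transcriptional repressor of the ETS family, and WT marks wild type. The subsets are Dec205, named for a surface receptor of the cross-presenting cDC1, pDC or plasmacytoid DC, and the cDC2 with little (Esamlo) or much (Esamhi) of the adhesion molecule ESAM. No source used here gives the promoter that drove the deletion, the strain, the age or the animals behind each library, so p-values cover the spread between libraries only, and that spread may be technical.

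E-cadherin is a calcium-dependent adhesion receptor that joins like cells through its outer domains. Inside the cell its tail binds beta-catenin (Ctnnb1) or plakoglobin (Jup), which hold alpha-catenin (Ctnna1) and through it actin, while p120-catenin (Ctnnd1) binds nearer the membrane and slows the removal of E-cadherin from the surface. Beta-catenin that is not held at junctions can enter the nucleus and act with TCF/LEF factors. The integrin of Itgae (CD103) and Itgb7 binds E-cadherin of epithelia, and Itgae is a known marker of many cDC1, while Itgb7 also pairs with Itga4. Among DCs, Langerhans cells of the skin and immature bone marrow cultures are known for E-cadherin, which joins them to keratinocytes or to each other.

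RefSeq promoter windows (GRCm38.p6) were held for 5 of the 8 genes, Ctnnb1, Ctnnd1, Jup, Itgb7 and Epcam. Shown are the 250 bases before the start that this table gives for Itgb7, whose RNA rose in Dec205 CKO cells, and for Epcam, whose levels set the subsets apart. Capitals mark CACCTG or its reverse complement CAGGTG, the E-box that Zeb and Snail repressors bind. The Itgb7 window lies at chr15:102231936-102232185 on the minus strand and the Epcam window at chr17:87635729-87635978 on the plus strand. The Itgb7 window lies inside the annotated span of the gene, which reaches base 102233405, so the start used there is not the outermost one.
Itgb7: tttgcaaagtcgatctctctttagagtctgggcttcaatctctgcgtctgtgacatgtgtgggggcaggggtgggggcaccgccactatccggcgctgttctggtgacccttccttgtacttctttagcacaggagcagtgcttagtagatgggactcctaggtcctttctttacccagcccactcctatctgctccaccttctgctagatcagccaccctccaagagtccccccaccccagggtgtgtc
Epcam: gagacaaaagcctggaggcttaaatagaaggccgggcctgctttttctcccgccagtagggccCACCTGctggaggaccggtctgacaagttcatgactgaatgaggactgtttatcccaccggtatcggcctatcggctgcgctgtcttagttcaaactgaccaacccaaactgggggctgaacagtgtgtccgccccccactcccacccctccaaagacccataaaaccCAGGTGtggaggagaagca
On both strands, CACCTG is present in 17.2% of 32851 mouse promoter windows of this length, and it occurs at 2 places before Epcam and at none before Itgb7. The letters CCGGAA, which hold the GGAA core that ETS factors bind, are in 12% of the windows, in 1 of the 2 windows of Ctnnd1 and in neither window shown. The 2 motifs cannot overlap each other, and a match is a description of letters, not a site.

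Depth was alike over the series, with 14434287 to 20709265 counts per library and 12806 to 15252 genes with a count. Values are CPM, counts scaled to the depth of each library with TMM factors, and a floor of 3 counts per library corresponds to 0.143 to 0.228 CPM. Etv6 itself was at 205 and 219 CPM in Dec205 CKO libraries, against 337 and 375 CPM in Dec205 WT libraries (log2 fold change -0.75, SE 0.1, adjusted p = 0.000996), and was not called in pDC (adjusted p = 1), Esamlo (0.255) or Esamhi (0.812). Counts over a whole gene can stay high when part of it is deleted, so Etv6 checks the labels weakly. Xist, expressed from an X chromosome of female cells, was at 114 to 355 CPM in all 8 CKO libraries and at 0 to 1.44 CPM in all 8 WT libraries, while Y-linked Ddx3y was at 0.0528 to 1.95 CPM in CKO and at 104 to 222 CPM in WT. Sex and genotype therefore coincide, and cannot be told apart in any comparison of CKO with WT below. Dec205, pDC and Esamhi each had a defining gene in WT. The cDC1 receptor Xcr1 had 1250 CPM in Dec205 and at most 31 CPM elsewhere. The pDC receptor Siglech had 5550 CPM in pDC and at most 6.33 CPM elsewhere. For Esam, Esamhi came first with 147 CPM, then Dec205 (32.8 CPM), Esamlo (12.6 CPM) and pDC (0). Esamlo WT, for which no such gene is given, had 5280 to 6050 CPM summed over 9 Esamlo cDC2 markers. In Esamhi that sum was 2730 to 2890 CPM in CKO against 1940 to 2100 CPM in WT, none called. Among 8 Esamhi cDC2 markers only Cd4 was called in Esamhi, lower in CKO (126 and 143 against 293 and 266 CPM in WT). Of 12 Dec205 markers only Irf8 was, higher in CKO (152 and 126 against 83.1 and 76.1 CPM in WT). Of all tested genes 0.877% were called in Esamhi, and the part of such shifts in Esamhi results was not tested.

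Cdh1 (Entrez 12550, chr8:106603350-106670247, GRCm38) was abundant in pDC of both genotypes and in cDC2 of CKO, and at 2.72 CPM or less in every other library. In Esamhi it had 527 and 510 CPM in CKO libraries, against 0 and 0.519 CPM in WT libraries. These CPM rest on 7766 and 9056 counts in CKO and on 0 and 10 counts in WT. In Esamlo the CKO libraries had 461 and 324 CPM, against 2.61 and 2.72 CPM in WT. Both CKO groups of cDC2 lay far above their WT groups, with no overlap. The fitted log2 fold change of CKO over WT was 10.91 (SE 0.54) in Esamhi, the highest of the 13790 tested genes, and 7.2 (SE 0.42) in Esamlo, where it stood at place 12. These are the values that chose the gene, and they carry no test.

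**Figure D1:**
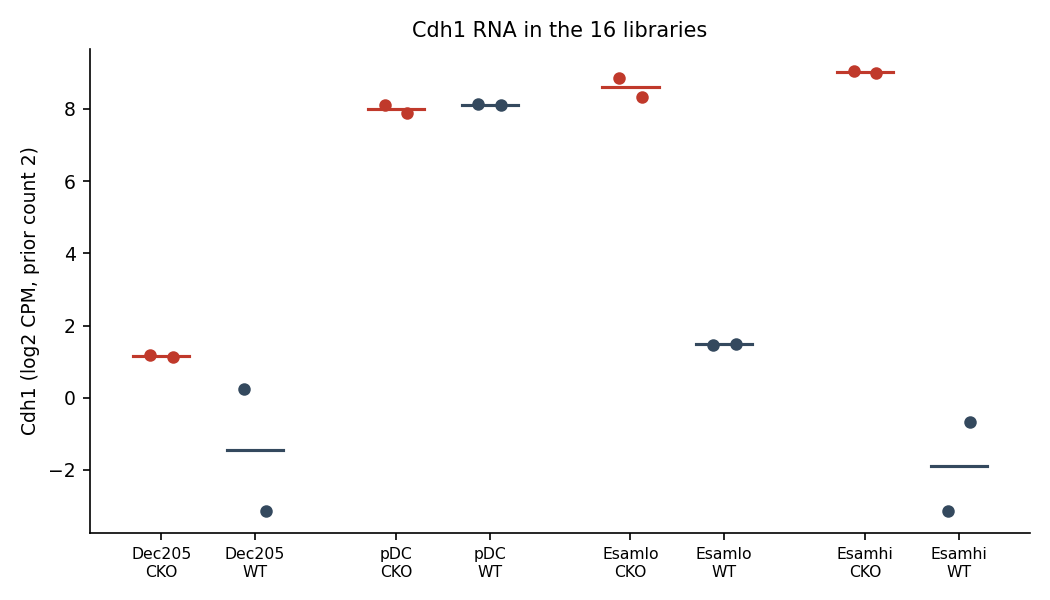
Cdh1 RNA as log2 CPM (prior count 2) in each of the 16 libraries (points; red CKO, dark WT), with the mean of the 2 libraries of a group as a line. Esamlo and Esamhi CKO libraries sit at 8.34 to 9.04, beside the pDC libraries at 7.87 to 8.13, and WT cDC2 libraries at -3.13 to 1.5.

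In pDC, the subset where Cdh1 was already abundant in WT, the CKO libraries had 275 and 234 CPM and the WT libraries 280 and 274 CPM. The ranges overlapped, and the log2 fold change was -0.12 (SE 0.29, 95% interval -0.79 to 0.55, edgeR quasi-likelihood adjusted p = 0.991). Dec205 stayed low in both genotypes, at 2.15 and 2.07 CPM in CKO libraries and 1.06 and 0 CPM in WT libraries. That difference did not pass the test (log2 fold change 2.06, SE 0.73, adjusted p = 0.119). Without replicate 1 of Dec205 WT the remaining WT library was at 0 and the adjusted p was 0.0108, so this call turns on a library with 14 counts of Cdh1. Between the subsets that the choice of genes did not use, Cdh1 was lower in Dec205 WT than in pDC WT (log2 fold change -9.09, SE 0.51, adjusted p = 1.51e-08).

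From the highest group mean to the lowest, Cdh1 was at 518 ± 11.7 CPM in Esamhi CKO, 393 ± 96.9 in Esamlo CKO, then in pDC at 255 ± 28.9 in CKO and 277 ± 3.92 in WT, and after these 2.67 ± 0.0765 in Esamlo WT, 2.11 ± 0.0553 in Dec205 CKO, 0.531 ± 0.751 in Dec205 WT and 0.259 ± 0.367 in Esamhi WT (SD, n = 2 each). The libraries of the pDC groups overlap, so no order between them is given, and those of the neighbours Dec205 WT and Esamhi WT overlap too. Esamhi CKO had 1.87 times, and Esamlo CKO 1.42 times, the mean of pDC WT. Per kilobase of merged exons, the level of Cdh1 was 3.59 and 3.14 times that of Ctnnb1 in the Esamhi CKO libraries and 2.52 and 1.95 times in the Esamlo CKO libraries, against at most 0.0166 times in WT cDC2. In the pDC libraries this ratio was 1.38 and 1.58 in CKO and 1.65 and 1.58 in WT. E-cadherin RNA thus exceeded that of its main partner, per length, in pDC and in CKO cDC2.

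The pDC markers of CKO cDC2 stayed at the level of WT in their sum. All 12 were measured, and their summed level was 324 to 326 CPM in Esamhi CKO against 333 to 334 CPM in Esamhi WT, and 371 to 403 CPM in Esamlo CKO against 360 to 380 CPM in Esamlo WT, where pDC libraries held 17300 to 19300 CPM. Siglech was at 0.814 and 1.52 CPM in Esamhi CKO, against 0.746 and 0.882 CPM in Esamhi WT. The pDC protease gene Klk1 was at 0 and 0.169 CPM in Esamhi CKO and at 0 in both Esamhi WT libraries, and at 0 in all 4 Esamlo libraries. Cox6a2, a subunit of the respiratory chain on the same list, was higher in CKO in Esamhi (9.29 and 7.38 CPM against 0.479 and 0.622 CPM in WT, adjusted p = 0.00504) and in Esamlo (20.2 and 12.5 CPM against 0.398 and 0.664 CPM in WT, adjusted p = 0.000919). Smim5 was lower in Esamlo CKO (2.73 and 2.09 CPM against 6.59 and 6.37 CPM in WT, adjusted p = 0.00847), and the other 10 pDC markers were not called in either cDC2 subset. The median log2 fold change of the 12 was 0.38 in Esamhi and -0.01 in Esamlo, beside 0 and 0.01 over all tested genes. Of all tested genes 0.877% were called in Esamhi and 0.551% in Esamlo. The part of pDC in the Cdh1 level of cDC2 was not tested.

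**Figure D2:**
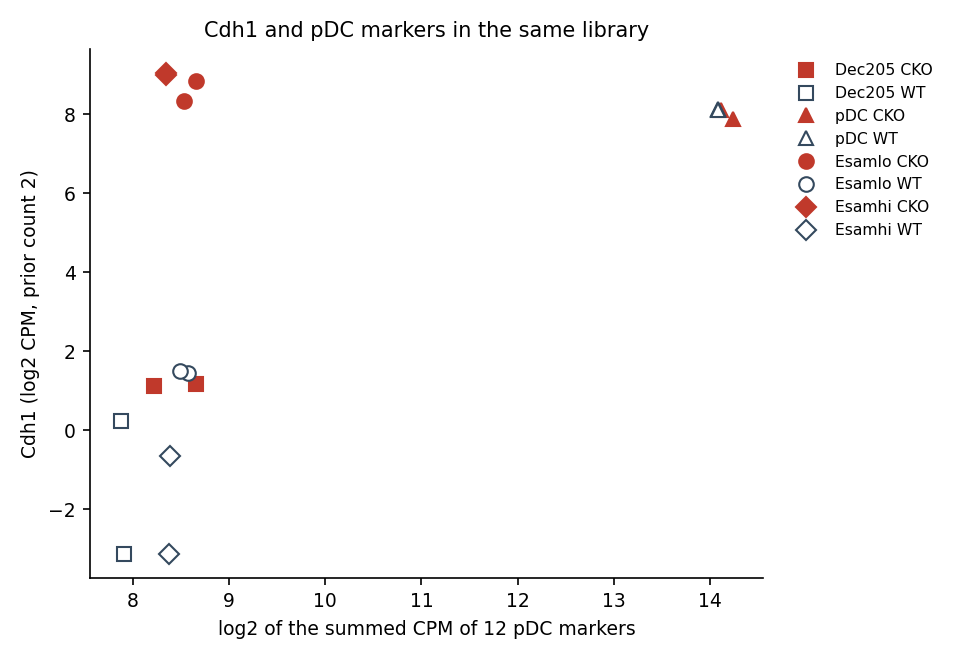
Cdh1 (log2 CPM, prior count 2) against the log2 of the summed CPM of 12 pDC markers, 1 point per library, with subsets by shape, CKO filled red and WT open. The 4 CKO cDC2 libraries reach the Cdh1 level of pDC at a pDC marker sum of 324 to 403 CPM, while pDC libraries lie at 17300 to 19300 CPM.

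Epithelial cells are the best known source of E-cadherin. The 31 epithelial markers summed to 372 to 383 CPM in Esamhi CKO against 375 to 383 CPM in Esamhi WT, and to 308 to 315 CPM in Esamlo CKO against 247 to 272 CPM in Esamlo WT. Most of that sum was Spint1, St14 and Pkp3, which are also expressed in WT cDC2. None of the 14 tested epithelial markers was called in cDC2, and their median log2 fold change was 0.44 in Esamhi and 0.21 in Esamlo, beside 0 and 0.01 over all tested genes. Only 0.877% of all tested genes were called in Esamhi and 0.551% in Esamlo. A lack of calls in a list this short is near that share, also for the lists below. Krt5, Krt14, Krt15, Krt19, Cldn3, Elf3, Dsp and Ovol2 had no count in any cDC2 group. Krt18, Cldn4, Esrp1 and Cdh3 had counts in Esamhi CKO, at 0.271 CPM or less, and none in Esamhi WT, and Krt8 and Cdh3 had counts in Esamlo CKO, at 0.226 CPM or less, and none in Esamlo WT. Krt20 went the other way, with counts in Esamhi WT and none in Esamhi CKO. The part of epithelial RNA in the Cdh1 level was not tested. Langerin (Cd207), the defining lectin of Langerhans cells, was at 1.07 CPM or less in the cDC2 libraries. The 15 Langerhans cell markers summed to 35000 to 36800 CPM in Esamhi CKO against 29300 to 30100 CPM in Esamhi WT, and to 32700 to 38100 CPM in Esamlo CKO against 33800 to 33900 CPM in Esamlo WT. Most of this was the class II chaperone Cd74, which all DCs express (35000 and 33100 CPM in Esamhi CKO against 28000 and 28600 CPM in Esamhi WT). None of the 14 tested Langerhans cell markers was called in either cDC2 subset, with medians of -0.04 in Esamhi and 0 in Esamlo. Erythroid precursors also carry E-cadherin. The erythroid list had 13 of its 17 genes in the table and summed to 178 to 188 CPM in Esamhi CKO against 103 to 104 CPM in WT, and to 118 to 196 CPM in Esamlo CKO against 81.1 to 104 CPM in WT. The transferrin receptor Tfrc made up most of it (mean 139 CPM in Esamhi CKO, 80.1 CPM in Esamhi WT), and the erythroid factor Gata1 and Rhag were at 0 in both CKO groups of cDC2. Neutrophil markers, 13 in all, summed to 113 to 120 CPM in Esamhi CKO against 24.1 to 35 CPM in WT, and to 120 to 122 CPM in Esamlo CKO against 74.4 to 90.7 CPM in WT, with Csf3r the largest (mean 66.3 CPM in Esamhi CKO, 17.6 CPM in Esamhi WT). B cell markers, 15 in all, summed to 1680 and 773 CPM in replicates 1 and 2 of Esamlo CKO, against 547 and 703 CPM in Esamlo WT. Cdh1 was higher in replicate 1 of Esamlo CKO, the library richest in B cell markers. No gene of the erythroid, neutrophil or B cell lists was called in either cDC2 subset, near the share of genes at large, but their medians lay above those of all tested genes. In Esamhi the median log2 fold change was 1.91 for neutrophil, 0.59 for B cell and 0.79 for erythroid markers, beside 0 over all tested genes. In Esamlo it was 0.78 for neutrophil, 1.03 for B cell and 0.58 for erythroid markers, beside 0.01. The part of these cells and of Langerhans cells in the Cdh1 level was not tested.

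The 5 genes whose log2 CPM followed Cdh1 most closely over the 16 libraries were Atp6ap1, an accessory subunit of the vacuolar proton pump (Pearson r = 0.904), Rab18, a small GTPase of lipid droplets and the endoplasmic reticulum (0.877), Osbpl5 (0.852), Tbc1d2b (0.85) and Zfp456 (0.845). The libraries fall into 8 groups, so these values describe a shared order of groups and carry no p. Osbpl5, an oxysterol-binding protein relative, had 14.2 CPM in Esamhi CKO against 1.79 CPM in Esamhi WT, 14.3 CPM in Esamlo CKO against 5.15 CPM in Esamlo WT, and 21.5 CPM in pDC CKO against 13.7 CPM in pDC WT. Tbc1d2b had 97.9 CPM in Esamhi CKO against 34.7 CPM in Esamhi WT. None of the 5 spanned the range of Cdh1.

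Transcription factors and chromatin proteins known to act on Cdh1 were read as a list of 44, of which 33 were tested. Neither Esamlo nor Esamhi had a called gene among the 33, nor did pDC. Of all tested genes 0.551%, 0.877% and 1.85% were called in these 3 subsets, so the lack of calls is near the share of genes at large. The median log2 fold change of CKO over WT was -0.03 in Esamlo and -0.07 in Esamhi, beside 0.01 and 0 over all tested genes. Zeb2 and Zeb1, E-box repressors of E-cadherin in epithelia, were looked at after their values were seen. Zeb2 was at 191 and 181 CPM in Esamhi CKO libraries, against 186 and 175 CPM in WT, and at 324 and 244 CPM in Esamlo CKO libraries, against 279 and 343 CPM in WT. Zeb1 was at 71.7 and 72.2 CPM in Esamhi CKO, against 72.4 and 65.5 CPM in WT. Snai1, Runx1, Ctbp2 and Dnmt1, also named after their values were seen, were among the listed genes with groups without overlap that were not called. Such a lack of overlap held for 44.2% of all tested genes in Esamlo and 44.2% in Esamhi. The E-box repressor Snai1 was at 4.14 and 2.76 CPM in Esamhi CKO against 1.38 and 1.5 CPM in WT (adjusted p = 1), and at 3.68 and 5.14 CPM in Esamlo CKO against 1.82 and 1.92 CPM in WT (adjusted p = 0.884). Runx1 was at 76.7 and 80.9 CPM in Esamhi CKO against 113 and 109 CPM in WT (adjusted p = 0.2), and at 146 and 135 CPM in Esamlo CKO against 152 and 168 CPM in WT. In Esamhi, Ctbp2 was at 25 and 23.9 CPM in CKO against 11.9 and 12 CPM in WT. Dnmt1 was there at 53.6 and 65.4 CPM in CKO against 94.9 and 75 CPM in WT. Zeb2 had its highest group means in pDC, with libraries at 374 and 342 CPM in CKO and 381 and 404 CPM in WT. The part of these regulators in the Cdh1 level was not tested. In Dec205 the list had 1 gene higher and 2 lower in CKO of the 33 tested, where 6.78% of all tested genes were called in either direction. Tcf4, an E protein that specifies pDC, rose (88.3 and 62 CPM in CKO against 42.4 and 30.1 CPM in WT, adjusted p = 0.0028), while Klf8 fell (0.82 and 3.11 CPM against 9.33 and 16 CPM in WT, adjusted p = 0.0135) and so did Runx1 (46.2 and 61.7 CPM against 81.3 and 101 CPM in WT, adjusted p = 0.00768). Tcf4 is also a pDC marker, and the 12 pDC markers summed to 299 to 403 CPM in Dec205 CKO against 235 to 240 CPM in Dec205 WT, their part in it not tested. Cdh1 was at 2.15 CPM or less in those Dec205 libraries.

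Beta-catenin, the partner that links E-cadherin to alpha-catenin, was not called in any comparison of CKO with WT. Ctnnb1 (Entrez 12387, chr9:120933400-120960507) had 166 and 184 CPM in Esamhi CKO libraries against 201 and 165 CPM in WT, and 208 and 188 CPM in Esamlo CKO against 213 and 186 CPM in WT. The pDC libraries had 227 and 168 CPM in CKO and 193 and 197 CPM in WT. In these 3 subsets the groups overlapped, and the log2 fold changes were -0.06 in Esamhi (95% interval -0.4 to 0.28), -0.01 in Esamlo (-0.35 to 0.33) and 0.02 in pDC (-0.33 to 0.36), all with adjusted p = 1. In Dec205 it had 194 and 204 CPM in CKO against 260 and 214 CPM in WT, lower in both CKO libraries but not called (log2 fold change -0.25, SE 0.15, adjusted p = 0.345). Thus Ctnnb1 lay within 165 to 213 CPM in the 8 cDC2 libraries, across which Cdh1 ran from 0 to 527 CPM.

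Alpha-catenin, which carries the link on to actin, was lower in Dec205 CKO. Ctnna1 (Entrez 12385, chr18:35118902-35254776) had 154 and 197 CPM in Dec205 CKO libraries, against 244 and 306 CPM in Dec205 WT libraries. It fell by 0.65 on the log2 scale (SE 0.16, adjusted p = 0.0262), with both CKO libraries below both WT libraries. The call was lost without replicate 2 of Dec205 WT (adjusted p = 0.165), without replicate 1 of Dec205 CKO (0.155) and with only the Dec205 libraries fitted (0.204). In Esamlo it had 130 CPM in both CKO libraries against 156 and 149 CPM in WT, a log2 fold change of -0.23 that was not called (adjusted p = 0.838). Esamhi (adjusted p = 1) and pDC (0.732) were not called either, with 93.6 and 111 CPM in Esamhi CKO against 117 and 101 CPM in Esamhi WT, and 186 and 158 CPM in pDC CKO against 135 and 161 CPM in pDC WT.

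Neither p120-catenin nor plakoglobin was called in CKO against WT, and both were lowest in pDC. Ctnnd1 (Entrez 12388, chr2:84587096-84658977) had 23.7 and 17.3 CPM in Esamlo CKO against 17.2 and 19.6 CPM in Esamlo WT, and 4.68 and 6.53 CPM in Esamhi CKO against 1.92 and 3.63 CPM in Esamhi WT. The Esamhi groups did not overlap, but the difference was not called (log2 fold change 1.01, SE 0.65, adjusted p = 0.933). In pDC it was at 2.64 and 0.536 CPM in CKO against 0.481 and 0.305 CPM in WT (adjusted p = 0.381). Dec205 WT was uneven, at 17.9 and 4.73 CPM, and enclosed the CKO libraries at 15.1 and 12.5 CPM. Jup (Entrez 16480, chr11:100368856-100397839) had 32.1 and 23.3 CPM in Dec205 CKO against 49.5 and 36.8 CPM in Dec205 WT, lower in both CKO libraries but not called (log2 fold change -0.63, SE 0.23, adjusted p = 0.124). In the other subsets its groups overlapped, with 36.6 to 45.3 CPM in CKO cDC2 against 35.2 to 51.2 CPM in WT cDC2, and 5.3 to 8.51 CPM in pDC CKO against 5.18 to 5.89 CPM in pDC WT. Exons of Ctnnd1 share 4482 bases with the gene model Gm28635 on the same strand, Ctnnb1 shares 759 with Ulk4 and Ctnna1 95 with Lrrtm2 on the opposite strand. Since the kit does not mark strand, reads of those bases cannot be told apart.

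**Figure D3:**
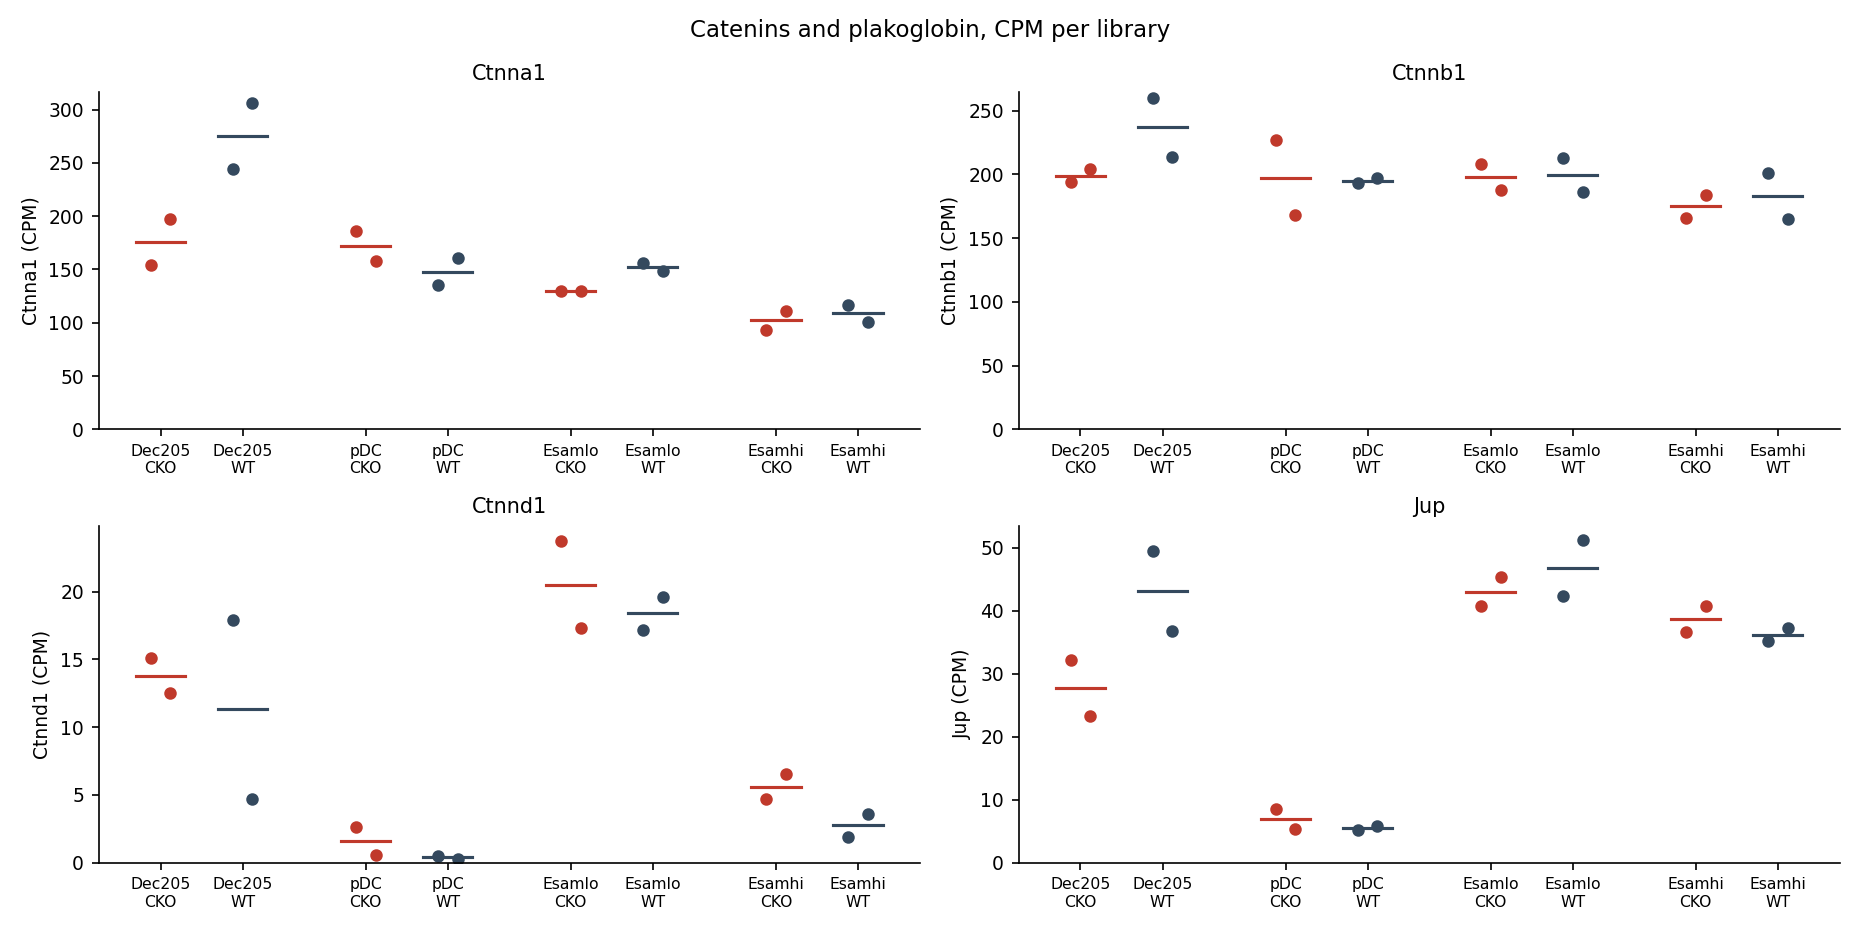
CPM of Ctnna1, Ctnnb1, Ctnnd1 and Jup in each library (points; red CKO, dark WT) with group means as lines, by subset. Ctnnb1 lies between 165 and 260 CPM in every group, Ctnna1 is lower in Dec205 CKO (154 and 197 CPM) than in Dec205 WT (244 and 306 CPM), and Ctnnd1 and Jup are lowest in pDC.

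Of the receptor chains, Itgb7 gave the clearest change in CKO outside Cdh1. Itgb7 (Entrez 16421, chr15:102215994-102233405, the gene of the Itgb7 sequence above) had 449 and 521 CPM in Dec205 CKO libraries, against 274 and 285 CPM in Dec205 WT libraries. It rose by 0.79 on the log2 scale (SE 0.095, adjusted p = 0.000305), and the groups were far apart. The call held in all 10 alternative settings tried for it. In pDC the CKO libraries had 424 and 419 CPM against 476 and 417 CPM in WT (log2 fold change -0.08, adjusted p = 0.895). The cDC2 libraries had 393 and 404 CPM in Esamlo CKO against 366 and 358 CPM in Esamlo WT (0.14, adjusted p = 0.84), and 366 and 352 CPM in Esamhi CKO against 332 and 291 CPM in Esamhi WT (0.2, adjusted p = 0.667). A joint test over the 4 subsets found that the effect of CKO on Itgb7 was not the same in all of them (adjusted p = 0.0131), a test that called 2.44% of all tested genes. Among the 7 genes other than Cdh1 it was the only 1 called (at an unadjusted p under 0.05 Ctnna1 joined it, adjusted p = 0.199). Lymphocytes also express Itgb7. The 15 B cell markers summed to 1210 and 655 CPM in replicates 1 and 2 of Dec205 CKO, against 385 CPM in each Dec205 WT library, and 4 of the 15 were called higher. Itgb7 was highest in replicate 2 of Dec205 CKO and B cell markers in replicate 1. The 14 NK cell markers summed to 237 and 187 CPM in replicates 1 and 2 of Dec205 CKO, against 102 and 123 CPM in Dec205 WT, and 1 of the 12 tested, Klrb1c, was called higher. The 15 T cell markers summed to 94.3 to 109 CPM in Dec205 CKO against 93.2 to 117 CPM in Dec205 WT, with Cd5 called higher and Bcl11b lower. The 9 Esamlo cDC2 markers summed to 1200 and 1820 CPM in replicates 1 and 2 of Dec205 CKO, against 1190 and 1110 CPM in Dec205 WT, with Ccr2 called higher and Cd14 and Sirpa lower, and replicate 2 of CKO was the library highest in Itgb7. The 12 pDC markers summed to 299 to 403 CPM in Dec205 CKO against 235 to 240 CPM in Dec205 WT, with 5 of the 12 called higher. Of all tested genes 6.78% were called in Dec205 CKO against WT. The part of these cells in the Itgb7 level was not tested, and in such bulk samples fewer cells of a type and less RNA per cell cannot be told apart.

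Itgae, the chain that makes the integrin specific for E-cadherin, was high in Dec205 and low elsewhere. Itgae (Entrez 16407, chr11:73090505-73147449) had 528 and 719 CPM in Dec205 CKO libraries, against 205 and 259 CPM in Dec205 WT libraries. Both CKO libraries lay above both WT libraries, and yet the difference did not pass the test (log2 fold change 1.42, SE 0.44, 95% interval 0.4 to 2.44, adjusted p = 0.0773). With only the Dec205 libraries fitted the adjusted p was 0.0216. In every other library Itgae was at most 6.49 CPM, with overlapping groups in pDC (2.43 and 2.25 CPM in CKO, 0.855 and 4.01 CPM in WT), Esamlo (4.21 and 6.49 CPM in CKO, 1.99 and 5.97 CPM in WT) and Esamhi (2.17 and 3.38 CPM in CKO, 4.63 and 1.45 CPM in WT). Per kilobase, Itgae was at 0.712 and 0.835 times the level of Itgb7 in Dec205 CKO and at 0.453 and 0.55 times in Dec205 WT, against at most 0.0101 times elsewhere. The groups with abundant Cdh1 thus had little Itgae, and Dec205, with the most Itgae, had little Cdh1. WT cDC2 had little of both, with mean Itgae at 3.98 CPM and Cdh1 at 2.67 CPM in Esamlo WT. In Esamhi WT the means were 3.04 CPM for Itgae and 0.259 CPM for Cdh1. Outside Dec205, Itgae was low whether Cdh1 was abundant or not. The genes most like Itgae over the 16 libraries were Ppt1 (Pearson r = 0.972), a lysosomal thioesterase, Plpp1 (0.972), Lacc1 (0.967), Habp4 (0.965) and Cst3 (0.964), the cysteine protease inhibitor cystatin C. Ppt1 was at 7110 CPM in Dec205 CKO and 6570 CPM in Dec205 WT, and at no more than 564 CPM in any other group mean.

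Epcam, which binds like molecules on neighbouring cells, was scarce in Dec205 and lower in CKO libraries of 3 subsets, without passing the test in any. Epcam (Entrez 17075, chr17:87635979-87651127) had 9.56 and 9.18 CPM in Esamhi CKO against 20.3 and 18.1 CPM in Esamhi WT, and 7.12 and 8.81 CPM in Esamlo CKO against 13.4 and 12.3 CPM in Esamlo WT. In Dec205 it had 0 and 1.36 CPM in CKO against 3.72 and 2.23 CPM in WT. No CKO library of these subsets reached its WT libraries. The log2 fold changes were -1.03 in Esamhi (SE 0.61, adjusted p = 0.878), -0.69 in Esamlo (SE 0.61, adjusted p = 0.92) and -2.21 in Dec205 (SE 0.78, adjusted p = 0.115). With only the Esamhi libraries fitted, Epcam was called (log2 fold change -1.04, adjusted p = 0.00541). In Dec205 it was called by DESeq2 (adjusted p = 0.0143) and without replicate 2 of Dec205 CKO, when the remaining CKO library was at 0 (0.00043). The pDC libraries went the other way, with 26.9 and 23.5 CPM in CKO against 22.4 and 15.1 CPM in WT (log2 fold change 0.43, adjusted p = 0.938), and the joint test over the subsets did not call Epcam (adjusted p = 0.496). Without replicate 2 of Dec205 CKO that joint adjusted p was 0.0041.

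**Figure D4:**
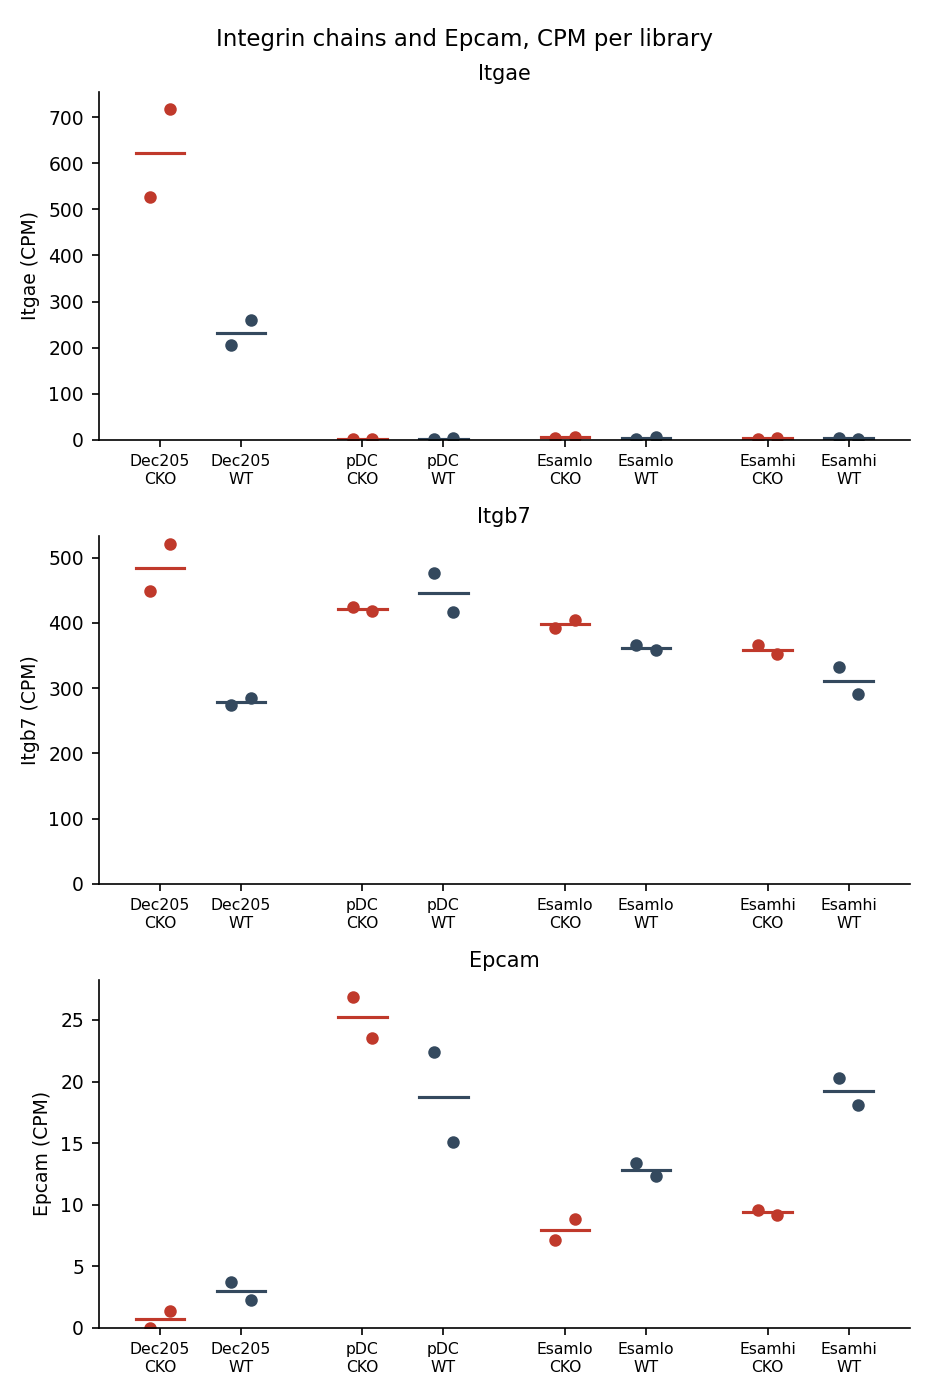
CPM of Itgae, Itgb7 and Epcam in each library (points; red CKO, dark WT) with group means as lines, by subset, each axis starting at 0. Itgae is highest in Dec205 (528 and 719 CPM in CKO, 205 and 259 CPM in WT), Itgb7 is present in all groups at 274 to 521 CPM, and Epcam is at most 3.72 CPM in Dec205 and 7.12 to 26.9 CPM elsewhere.

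Counted over the 8 genes, 2 were called in Dec205 CKO against WT (Itgb7 higher, Ctnna1 lower), where 6.78% of all tested genes were called, 3.44% higher and 3.34% lower. At an unadjusted p under 0.05 there were 6, and DESeq2 called 3. In 7 of the 8 the Dec205 groups did not overlap, where 41.2% of all tested genes did not. None of the 8 was called in pDC (1 at an unadjusted p under 0.05, Ctnnd1, and 0 by DESeq2), where 1.85% of tested genes were called, 1.47% higher and 0.377% lower, and the libraries of 2 of the 8 (Ctnnd1 and Epcam) did not overlap, beside 37.3% of all tested genes. None of the 7 other than Cdh1 was called in Esamlo or in Esamhi (0 at an unadjusted p under 0.05 and 0 by DESeq2 in both), where 0.551% of tested genes were called in Esamlo (0.457% higher and 0.0943% lower) and 0.877% in Esamhi (0.674% higher and 0.203% lower). The Epcam, Itgb7 and Ctnna1 libraries of Esamlo did not overlap between genotypes, and neither did those of Epcam, Itgb7 and Ctnnd1 of Esamhi. Without overlap were 44.2% of all tested genes in each of these subsets, so 3 of 7 is near the share of genes at large.

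**Figure D5:**
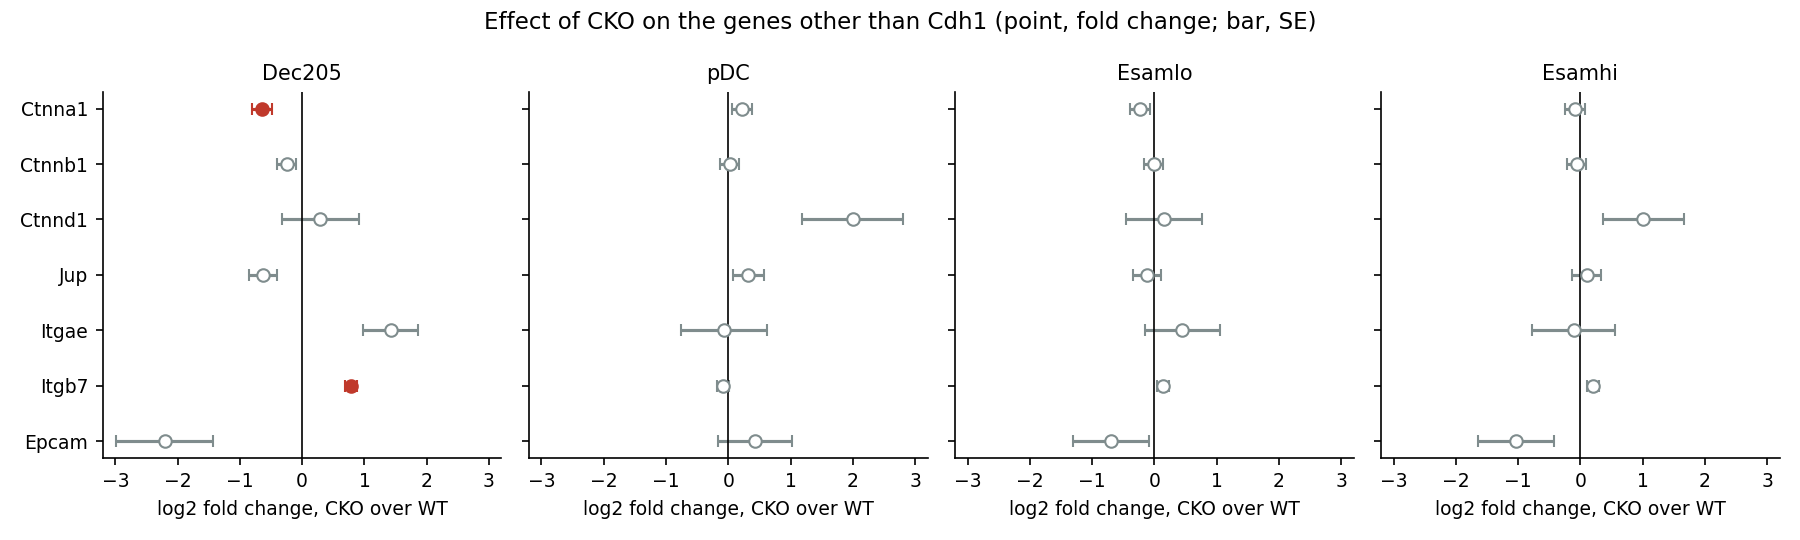
Log2 fold change of CKO over WT (points) with its SE (bars) for the 7 genes other than Cdh1, 1 panel per subset, filled red where the adjusted p was under 0.05 and open where it was not. Itgb7 (0.79) and Ctnna1 (-0.65) in Dec205 are the filled points, and Epcam lies below 0 in Dec205, Esamlo and Esamhi with wide bars.

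The WT libraries order the 4 subsets. Between Dec205 and pDC, 7 of the 8 genes were called, where 47.6% of all tested genes were. Dec205 had more Itgae (232 CPM against 2.43 CPM in pDC, adjusted p = 1.38e-06), Jup (43.1 against 5.54 CPM, adjusted p = 7.58e-07), Ctnnd1 (11.3 against 0.393 CPM, adjusted p = 0.000272) and Ctnna1 (275 against 148 CPM, adjusted p = 0.000421). It had less Cdh1, Itgb7 (280 against 447 CPM, adjusted p = 6.53e-05) and Epcam (2.97 against 18.7 CPM, adjusted p = 0.00499). Ctnnb1 alone was not called (237 against 195 CPM, adjusted p = 0.14). Of the genes called in this comparison 52.9% were higher in Dec205, and 39.5% when scaled by total counts only, a scaling that moved the median of all genes by -0.24 on the log2 scale.

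Against Esamlo, Dec205 differed in 4 of the 7 genes other than Cdh1, where 34.2% of all tested genes were called. Itgae (232 against 3.98 CPM in Esamlo, adjusted p = 6.7e-06) and Ctnna1 (275 against 153 CPM, adjusted p = 0.00104) were higher, and Itgb7 (280 against 362 CPM, adjusted p = 0.0084) and Epcam (2.97 against 12.9 CPM, adjusted p = 0.0243) lower. The Epcam call was lost without replicate 2 of Dec205 WT (adjusted p = 0.109), replicate 1 of Esamlo WT (0.0754) or replicate 2 of Esamlo WT (0.0665), and Ctnnd1 was called without replicate 1 of Dec205 WT (0.0452). Of the calls over all genes 47% were higher in Dec205, and 36.1% when scaled by total counts only. Against Esamhi, Dec205 differed in 4 of the 7, where 37.4% of all tested genes were called. Itgae (adjusted p = 3.51e-06), Ctnna1 (275 against 109 CPM in Esamhi, adjusted p = 2.62e-05) and Ctnnd1 (11.3 against 2.77 CPM, adjusted p = 0.0287) were higher and Epcam (2.97 against 19.2 CPM, adjusted p = 0.0062) lower. This Ctnnd1 call was lost without replicate 1 of Dec205 WT (adjusted p = 0.387), replicate 1 of Esamhi WT (0.189) or replicate 2 of Esamhi WT (0.0551), while Ctnnb1 was called without replicate 2 of Dec205 WT (0.0403; 0.0649 with all libraries).

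Less p120-catenin and plakoglobin RNA set pDC apart from both cDC2 subsets. Against Esamlo, 3 of the 7 genes were called in pDC, where 45.7% of all tested genes were, with Jup (5.54 against 46.8 CPM, adjusted p = 6.65e-07) and Ctnnd1 (0.393 against 18.4 CPM, adjusted p = 0.000108) lower and Itgb7 (447 against 362 CPM, adjusted p = 0.0184) higher. Itgb7 lost its call there without replicate 1 of pDC WT (adjusted p = 0.185), replicate 1 of Esamlo WT (0.0579) or replicate 2 of Esamlo WT (0.0907). Against Esamhi, 4 of the 7 were called in pDC, where 47.1% of all tested genes were. Jup (5.54 against 36.2 CPM, adjusted p = 1.65e-06) and Ctnnd1 (0.393 against 2.77 CPM, adjusted p = 0.0111) were lower, and Itgb7 (447 against 312 CPM, adjusted p = 0.000548) and Ctnna1 (148 against 109 CPM, adjusted p = 0.0325) higher. Without replicate 2 of pDC WT, Ctnna1 (0.223) and Ctnnd1 (0.0771) were not called, nor were they without replicate 2 of Esamhi WT (0.199 and 0.0756). Esamlo differed from Esamhi in 1 of the 7, Ctnnd1 (18.4 against 2.77 CPM in Esamhi, log2 fold change 2.72, adjusted p = 0.0313), where 5.81% of all tested genes were called. That call was lost without replicate 1 (adjusted p = 0.0828) or 2 (0.14) of Esamlo WT and without replicate 1 (0.281) or 2 (0.103) of Esamhi WT. The other 6 were not called between the cDC2 subsets of WT, 3 of the 7 having an unadjusted p under 0.05 (Ctnna1, Ctnnd1 and Itgb7).

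The wider cadherin family was read as a list too. Of 43 listed cadherins and protocadherins 42 were in the table and 18 were tested apart from Cdh1. In Esamlo, Esamhi and pDC none of the 18 was called, beside 0.551%, 0.877% and 1.85% of all tested genes. That lack of calls is near the share of genes at large. In Dec205 1 of the 18 was called, beside 6.78% of all tested genes. Cdh17, the liver-intestine cadherin, was lower in Dec205 CKO (0 and 0.389 CPM against 2.35 and 10.1 CPM in WT, log2 fold change -5.1, adjusted p = 0.0446), a gene named after its values were seen. In Esamhi, where Cdh1 was highest, Cdh17 had 29 and 30.1 CPM in CKO against 60 and 52.1 CPM in WT (adjusted p = 1). The pDC had the endothelial cadherin Cdh5, at 72.3 and 70.1 CPM in CKO against 113 CPM in each WT library (adjusted p = 0.603). None of the 5 tested desmosome genes was called in any subset, which is also near these shares.

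Of 26 tested linkers of the junction to actin, 2 rose and 3 fell in Dec205 CKO, where 6.78% of all tested genes were called, and the median log2 fold change was -0.32 beside 0 over all tested genes. Ctnnd2, delta-catenin, a relative of p120-catenin, rose (14.9 and 7.97 CPM in CKO against 0.152 and 1.15 CPM in WT, adjusted p = 0.000136), as did the actin polymerisation factor Evl (239 and 267 against 159 and 145 CPM in WT, adjusted p = 0.00211). Vinculin (Vcl), which binds stretched alpha-catenin, fell (25.6 and 23.4 against 34.5 and 60.9 CPM in WT, adjusted p = 0.0354), with the nectin Pvrl1 (10 and 9.08 against 25.9 and 22.3 CPM in WT, adjusted p = 0.0304) and the scaffold Iqgap1 (430 and 463 against 540 and 563 CPM in WT, adjusted p = 0.0441). Evl also rose in pDC CKO (96.9 and 91.8 against 35.7 and 30.4 CPM in WT, adjusted p = 2.32e-05) and in Esamlo CKO (107 and 116 against 68.4 and 77.1 CPM in WT, adjusted p = 0.0356), the 1 linker called in each, and none was called in Esamhi. Of 30 tested genes of E-cadherin uptake, cleavage and degradation, the adaptor subunit Ap2b1 fell in Dec205 (87.7 and 86.8 against 120 and 128 CPM in WT, adjusted p = 0.0267) and the gamma-secretase subunit Aph1b rose in pDC (15.9 and 19.5 against 11.4 and 8.23 CPM in WT, adjusted p = 0.0376), and none was called in cDC2.

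Of 39 tested genes that control beta-catenin or act with it in the nucleus (destruction complex, Wnt relay and TCF/LEF partners), 3 rose and 1 fell in Dec205 CKO, beside 6.78% of all tested genes called there, and none was called in pDC, Esamlo or Esamhi. Tle1, a corepressor of TCF factors, rose (59.9 and 99.6 CPM in CKO against 39.2 and 16.6 CPM in WT, adjusted p = 0.0193) and its relative Tle3 fell (65.2 and 76.8 against 90.7 and 112 CPM in WT, adjusted p = 0.0334). The Wnt relay protein Dvl3 rose (23.1 and 24 against 10.8 and 8.11 CPM in WT, adjusted p = 0.00188), and so did Btrc, which marks beta-catenin for degradation (22.3 and 26.2 against 9.26 and 14.9 CPM in WT, adjusted p = 0.0243). None of the 10 tested target genes of beta-catenin was called in any of the 4 subsets.

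Other integrin chains changed in all 4 subsets. Of 21 tested chains, 3 rose and 2 fell in Dec205 CKO, and 3 rose and none fell in each of pDC, Esamlo and Esamhi, beside 6.78%, 1.85%, 0.551% and 0.877% of all tested genes called in these 4 subsets. Itga4, the other partner of Itgb7, fell in Dec205 (259 and 331 CPM in CKO against 381 and 526 CPM in WT, adjusted p = 0.0356), where Itgb7 rose, and Itgb1, which can also pair with Itga4, fell too (497 and 549 against 714 and 733 CPM in WT, adjusted p = 0.0171). Itgax (CD11c) rose in every subset, in Esamhi to 1390 and 1440 CPM in CKO against 928 and 867 CPM in WT (adjusted p = 0.0346). Itgad rose in pDC, Esamlo and Esamhi, in Esamhi with 171 and 174 CPM in CKO against 65.7 and 89.3 CPM in WT (adjusted p = 0.0188), and Itgam (CD11b) rose in Dec205 and in pDC, there with 31.1 and 25.4 CPM in CKO against 4.01 and 5.18 CPM in WT (adjusted p = 0.00084). Itgam, Itgax and Itgad lie in a row on chromosome 7 between 128062640 and 128205504, and Itgad ends within Cox6a2, the gene given above with the pDC markers, so reads of that stretch cannot be told apart. Itgb4, a chain of epithelial hemidesmosomes named after its values were seen, was higher in Dec205 CKO (mean 7.96 CPM, at least 37-fold over a floor of 3 counts per WT library, adjusted p = 0.00639), Esamlo CKO (8.6 against 0.0568 CPM in WT, adjusted p = 0.0421) and Esamhi CKO (3.52 CPM, at least 22.3-fold over the same floor, adjusted p = 0.0377), while in pDC it had 4.7 and 6.59 CPM in CKO against 1.12 and 0.0508 CPM in WT and was not called (adjusted p = 0.174). Of 20 tested genes of integrin activation, Rasgrp2 rose (5.79 and 7.52 against 2.12 and 1.83 CPM in WT, adjusted p = 0.000534) and Ptk2b fell (57.4 and 63.3 against 87.5 and 98.8 CPM in WT, adjusted p = 0.0114) in Dec205, and Parvg rose in pDC (249 and 224 against 151 and 142 CPM in WT, adjusted p = 0.00128).

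Of the partners of Epcam, 3 fell in Dec205 CKO. The list had 11 tested genes, of which these fell and none rose, where 6.78% of all tested genes were called, with a median log2 fold change of -0.51 beside 0 over all tested genes, and none was called in the other subsets. St14 (matriptase), a protease that cleaves Epcam, fell (4.97 and 5.77 CPM in CKO against 20.7 and 26.2 CPM in WT, adjusted p = 7.1e-05), and so did its inhibitors Spint1 (86.3 CPM in both CKO libraries against 124 and 135 CPM in WT, adjusted p = 0.00386) and Spint2 (274 and 272 against 383 and 343 CPM in WT, adjusted p = 0.0291). Genes of the TGF-beta pathway, which raises Itgae in lymphocytes and DCs, gave 2 higher and 1 lower of 30 tested in Dec205, beside 6.78% of all tested genes called there. Pmepa1, a feedback inhibitor and target of the pathway, rose in Dec205 (138 and 162 CPM in CKO against 20.3 and 26.8 CPM in WT, adjusted p = 1.82e-05) and in Esamlo (6.69 and 9.77 against 2.16 and 2.46 CPM in WT, adjusted p = 0.00485), as well as in Esamhi (3.59 and 3.04 against 0.692 and 0.415 CPM in WT, adjusted p = 0.00242, named there after its values were seen). It was the 1 gene of the list called in either cDC2 subset, and in pDC none was called. Of all tested genes 1.85% were called in pDC, 0.551% in Esamlo and 0.877% in Esamhi. In Dec205 the ligand-tethering protein Nrros rose (652 and 648 against 504 and 452 CPM in WT, adjusted p = 0.00606) and the ubiquitin ligase Smurf1 fell (36.3 and 33.6 against 60.3 and 79.2 CPM in WT, adjusted p = 0.00701).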

How the data were processed

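The values are raw counts per gene (whole numbers) in a table that the authors deposited, with 24116 genes and a column for each of the 16 libraries. Per the labels' protocols, RNA of sorted cells was purified with a PicoPure kit, and cDNA was amplified by SMART-seq v4 Ultra Low Input, a kit that marks neither strand nor molecules. Per the submitters' processing notes, bcl2fastq, Trimmomatic 0.36, Bowtie2 2.2.9 and the build mm10 were used. How reads were assigned to genes is not stated.

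From these counts, filterByExpr on the 8 groups left 13790 genes, scaled by TMM (factors 0.913 to 1.1). All p-values are from the quasi-likelihood F test of edgeR (version 4.0.16 under R 4.3.3; two-sided, 1 coefficient per group, 8 residual degrees of freedom), adjusted by Benjamini-Hochberg over all 13790 genes and called under 0.05. DESeq2 1.42.0 was an alternative. The script was tested on simulated data. CPM means are ± SD of 2 libraries, log2 CPM used a prior count of 2, and floors cover counting error only. Each SE is the absolute log2 fold change over the square root of F. Intervals are 95%, from this SE and a t distribution with 8 degrees of freedom. The F test also draws on spread shared over genes, so p-values rest on more degrees of freedom than the intervals. Levels per length used merged GENCODE exons, positions RefSeq of GRCm38.p6, which mm10 corresponds to.

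The genes and lists were chosen with earlier results of these data known. Named list genes are up to 3 called genes per direction, list and comparison with the largest change, a mean log2 CPM of at least 1 and groups that do not overlap. The 5 genes most like Cdh1 and Itgae were taken by Pearson r over such genes.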

Additional observations from a re-analysis of the deposited data

Results flagged for a closer look

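The effect of CKO on Itgb7 differed between the subsets by the joint test with 3 numerator degrees of freedom (edgeR quasi-likelihood adjusted p = 0.0131). The log2 fold change of CKO over WT was 0.79 in Dec205 and -0.08 in pDC, and in cDC2 0.14 (Esamlo) and 0.2 (Esamhi), with n = 2 libraries per group. In Dec205 both CKO libraries (449 and 521 CPM) lay above both WT libraries (274 and 285 CPM), while in pDC the CKO libraries (424 and 419 CPM) lay within the range of WT (476 and 417 CPM). B cell markers summed to 1210 and 655 CPM in Dec205 CKO and to 385 CPM in each Dec205 WT library, and their part in the difference was not tested.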

How the results depend on the processing

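Of 877 values of the 8 genes under alternative settings, over 80 results, 730 had a direction, of which 662 kept it and their side of the threshold and 35 changed sign, in 21 results that were not called. The other 147 were adjusted p-values of the joint test, which has no direction, and 145 kept their side. In all 21 values lost and 14 gained a call. The counts of all called genes (Dec205 935, pDC 255, Esamlo 76, Esamhi 121) became 154, 91, 153 and 588 with only the libraries compared fitted, and 1707, 549, 250 and 305 with DESeq2. With only the Esamhi libraries fitted 1 of the 7 genes was called there. Between Esamlo and Esamhi in WT the 801 calls became 1573 with only those libraries and 1400 with DESeq2, with 2 of the 7 genes called in each, and the 337 calls of the joint test became 1082 with DESeq2, with 2 of the 7. Itgb7 was called between Dec205 and Esamhi in WT when scaled by total counts only (adjusted p = 0.0333; 0.22 by TMM), a scaling that moved the median of all genes by -0.17 between Dec205 and Esamlo, -0.14 between Dec205 and Esamhi and 0.11 between pDC and Esamhi.

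Leaving out 1 library at a time, where the lone library left is assumed to vary like the other groups, gave 589 to 1341 calls in Dec205 (1 to 3 of the 8 genes), 175 to 284 in pDC (0), 27 to 38 in Esamlo (0), 39 to 46 in Esamhi (0) and 218 to 538 in the joint test (1 to 2). In WT it gave 5547 to 6274 calls for Dec205 against pDC (7), 3276 to 4419 for Dec205 against Esamlo (3 to 5), 3559 to 4790 for Dec205 against Esamhi (3 to 5), 4959 to 5355 for pDC against Esamlo (2 to 3), 5067 to 5621 for pDC against Esamhi (2 to 4) and 309 to 510 for Esamlo against Esamhi (0). The uncalled log2 fold changes that changed sign ran from -0.38 to 1.55 for Ctnnd1 in Dec205. In pDC they ran from -0.22 to 0.22 for Ctnnb1 (0 with DESeq2 or its size factors), -0.07 to 0.62 for Jup, -0.77 to 1.44 for Itgae and -0.19 to 0.02 for Itgb7. In Esamlo they ran from -0.11 to 0.09 for Ctnnb1, -0.09 to 0.37 for Ctnnd1, -0.25 to 0.02 for Jup and -0.17 to 1.41 for Itgae, and in Esamhi from -0.22 to 0.03 for Ctnna1, -0.19 to 0.09 for Ctnnb1 and -0.72 to 0.95 for Itgae. Between subsets of WT they ran from -0.36 to 0.08 for Jup in Dec205 against Esamlo. For pDC against Esamlo they ran from -0.17 to 0.07 for Ctnna1 (0.07 with total counts only), -0.13 to 0.07 for Ctnnb1 (0.08 with total counts only) and -2.18 to 0.3 for Itgae. For pDC against Esamhi they ran from -0.04 to 0.25 for Ctnnb1, -1.82 to 0.76 for Itgae and -0.37 to 0.22 for Epcam (0.11 with total counts only), and for Esamlo against Esamhi from -0.01 to 0.28 for Ctnnb1 and -0.61 to 1.42 for Itgae. The causes were not tested.

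Within a subset, same-numbered CKO and WT libraries shared little of their deviation from the group means. Over all tested genes these deviations correlated at 0.02 (Dec205), 0.01 (pDC), -0.01 (Esamlo) and -0.07 (Esamhi). With 2 libraries per group, such values cannot settle whether same-numbered libraries were prepared together. Pairing between subsets, such as cells sorted from the same animal, was not checked, and the replicate block does not model it. With the replicate block there were 971, 260, 86 and 136 calls in Dec205, pDC, Esamlo and Esamhi and 343 in the joint test. Of the 8 genes it changed 1 call, Ctnnb1 between Dec205 and Esamhi in WT (adjusted p = 0.0411; 0.0649 without the block). Levels near 3 counts per library, such as Cdh1 in Esamhi WT, are limited by depth.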

Other observations

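Genes around Cdh1 were looked at after its values were seen. Within 500 kb of it 25 genes were in the table and 19 were tested, and none was called in any of the 4 comparisons of CKO with WT (lowest adjusted p 0.151). Cdh3, the placental cadherin next to Cdh1, was at 0.136 CPM or less in every cDC2 library.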
